A study of Rattus norvegicus with 15 samples.

Results

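The genes described here are 197 gene IDs with the highest ratio of granule-fraction ribosome footprints to homogenate RNA in postnatal rat brain, of 22050 gene IDs in the table. They were chosen by a ratio of mean CPM (counts scaled to a library total of 1000000): log2 of the mean in vehicle footprint libraries 1 to 3 plus 0.1, over the mean in RNA libraries 1 to 3 plus 0.1. The 10173 genes with a mean of at least 10 CPM in RNA libraries 1 to 3, called eligible genes here, were ordered by it; the first 200 were taken, and 3 of them were among 7 IDs left out by name. The table and the reference tables pair 0 of its IDs with a gene symbol, so genes are identified by ID or by their place in that order (rank), and the brain label was not checked against marker genes.

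Ribosome profiling digests RNA that no ribosome covers and sequences the protected fragments, so its reads report where and on which mRNAs ribosomes sit. Neurons pack polysomes together with RNA-binding proteins into dense RNA granules that carry mRNA into dendrites and axons, with the ribosomes paused until a signal resumes translation. A dense pellet from developing brain is rich in such clustered ribosomes. A high ratio of its footprints to RNA can mark an mRNA that is over-represented on these ribosomes for its abundance. It does not separate more ribosomes per mRNA from more of the mRNA lying in the pellet.

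The animals were Sprague Dawley rats aged 5 days, and each homogenate pooled 5 whole brains, per the labels. Footprints came from the pelleted fraction in 5 vehicle libraries, in 3 libraries with 100 ug/ml cycloheximide (an inhibitor of translation elongation) in the homogenisation buffer, and in 2 salt libraries whose resuspended pellet stood in 400 mM NaCl and was brought back to 150 mM before RNase I digestion. The 5 RNA libraries, labelled Control, came from unfractionated homogenate. Vehicle, cycloheximide and RNA libraries 1 to 3 were deep, at 19223750 to 53645452 counts, and vehicle 4 and 5, salt 1 and 2 and RNA 4 and 5 were shallow, at 941637 to 2808779 counts. The same 9 deep libraries have empty cells in 6 genes, none of them a member. The labels do not say which libraries came from separate homogenates, so p-values measure the spread between these libraries, which may be technical. In such bulk samples fewer cells of a type and less RNA per cell cannot be told apart.

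The ratio that chose the members ran from 1.17 to 4.36 on the log2 scale, with a median of 1.40, against a median of -0.52 over the eligible genes. The members ranked 198, 199 and 200 had ratios of 1.18, 1.17 and 1.17, and the first 3 genes left outside had 1.17, 1.17 and 1.16, so the list ends where the ratio changes very little. These values are a description, since they made the choice. The members' mean level in RNA libraries 1 to 3 ranged from 10.3 to 3668 CPM, with a median of 82.3 CPM.

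The first member, ENSRNOG00000010711, stood apart from all others. It had 6316, 2294 and 2965 CPM in vehicle libraries 1 to 3 and 51701 and 134959 CPM in vehicle libraries 4 and 5. With cycloheximide it had 3223, 3623 and 5263 CPM, and with salt 104694 and 107276 CPM. The 5 RNA libraries held 150.2, 212, 202, 141 and 151 CPM. Its RNA level thus lay in 1 narrow range in all 5 libraries, while its footprints were far higher in the 4 shallow footprint libraries than in the 6 deep ones, with no overlap.

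The members ranked 2 to 10 had choosing ratios from 2.08 to 2.94. The member ranked 2 had 312, 535 and 533 CPM in vehicle libraries 1 to 3 against 33.3, 58.5 and 87.4 CPM in RNA libraries 1 to 3. In the libraries that did not choose it, it had 568 and 436 CPM in vehicle libraries 4 and 5 and 202 and 279 CPM in RNA libraries 4 and 5. Its footprints were at a like level in both depth classes, while its RNA was higher in both shallow RNA libraries than in any deep one. The fitted ratio there was lower but still above 0 (log2 ratio 1.31, SE 0.24, edgeR adjusted p = 0.00631).

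As a sum, the members took 9.27% to 11.5% of the counts of vehicle libraries 1 to 3 and 9.29% to 11.7% of those of the cycloheximide libraries. They took 3.40% to 4.40% in RNA libraries 1 to 3 and 5.16% and 4.99% in RNA libraries 4 and 5. In the shallow footprint libraries their share was 12.5% and 20.8% in vehicle 4 and 5 and 17.7% and 18.5% in salt 1 and 2. Much of that was ENSRNOG00000010711: without it the members' share was 7.35% and 7.28% in vehicle 4 and 5, 7.19% and 7.73% in salt 1 and 2, and 8.64% to 11.3% in the 6 deep footprint libraries. As a share of the counts that remain once that gene is left out, the members took 7.75% and 8.42% in vehicle 4 and 5, 8.04% and 8.65% in salt 1 and 2, and 8.70% to 11.3% in the deep footprint libraries, against at most 5.14% in the RNA libraries. Salt library 2 was then close to vehicle library 1, the lowest of the deep ones.

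**Figure D1:**
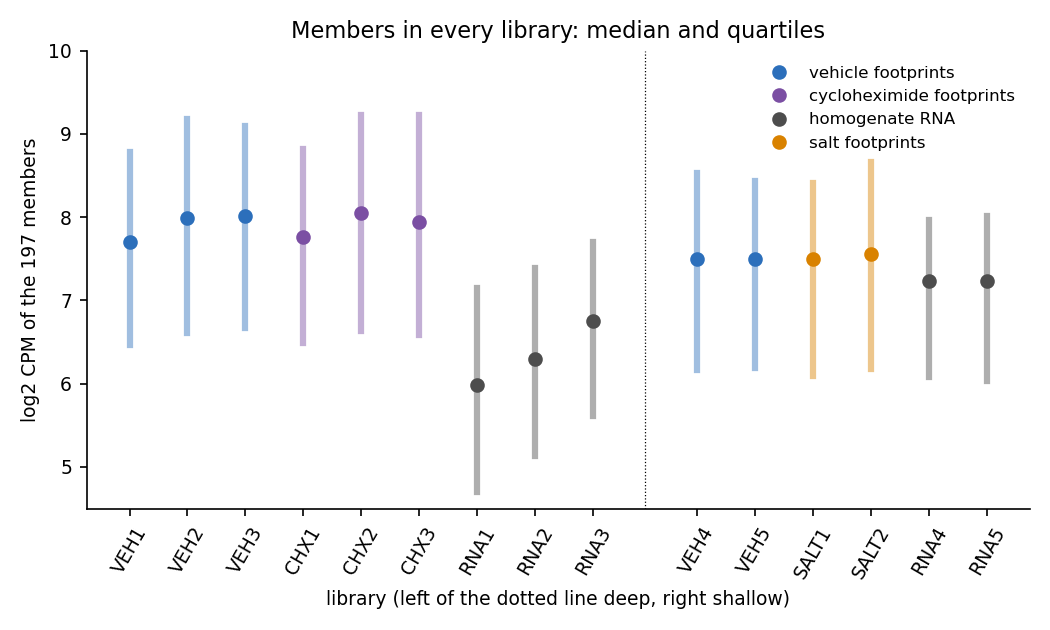
Log2 CPM of the 197 members in each of the 15 libraries; dots are medians over members and bars run from the lower to the upper quartile. The median lay at 209 to 265 CPM in deep footprint libraries, 181 to 188 CPM in shallow footprint libraries, 63.3 to 108 CPM in RNA libraries 1 to 3 and near 150 CPM in RNA libraries 4 and 5.

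The members were tested in vehicle footprint libraries 4 and 5 against RNA libraries 4 and 5, none of which chose them. All 197 passed the filter on low counts. Of these, 40 (20.3%) had more footprints than RNA and 1 (0.508%) had fewer, at an adjusted p under 0.05 in edgeR's quasi-likelihood test. Over all 11729 genes tested the share with more footprints was 2.39% and the share with fewer was 2.17%. In either direction 4.56% of all genes passed. Over the 10047 eligible genes tested, 2.76% had more footprints and 2.23% had fewer. Members were better counted, with a median of 182 CPM in vehicle library 4 against 32.2 CPM over the eligible genes. Their median SE in this fit was 0.29, against 0.54 over the eligible genes tested. A given ratio was thus called more easily in a member, and how far this raised the members' share was not tested. At an unadjusted p under 0.05, 93 members were higher and 4 lower, against 8.80% and 8.82% of all genes tested. Ratios here are relative to TMM scaling, which sets the bulk of genes near 0. The members' median fitted log2 ratio was 0.62, with quartiles of 0.15 and 0.95, against -0.08 over all genes tested, and 170 members lay above 0 and 27 below.

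Members thus leaned to footprints in libraries outside the choice, by less than in the choosing libraries: the choosing median was 1.40, and on the same CPM scale, without TMM, the median in libraries 4 and 5 was 0.37. With scaling to total counts the called members were 22 higher and 2 lower, and the median of all genes tested moved from -0.08 to -0.34. On that scaling 0.998% of all genes were called higher, and 117 higher and 358 lower calls replaced 280 and 255. Leaving out vehicle library 4, vehicle library 5 or RNA library 5 left 25, 21 and 25 members called higher, where the shares of all genes called higher were 0.593%, 1.45% and 2.18%.

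**Figure D2:**
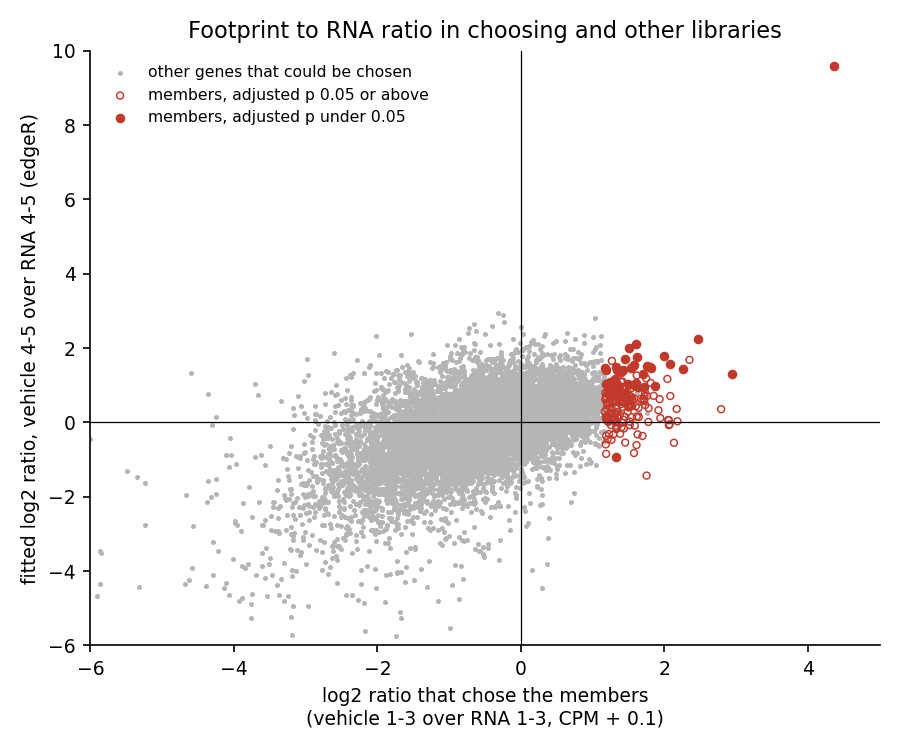
The log2 ratio that chose the members (horizontal axis, vehicle 1 to 3 over RNA 1 to 3) against the fitted log2 ratio in vehicle 4 and 5 over RNA 4 and 5 (vertical axis) for eligible genes; members are red and filled where the adjusted p is under 0.05. Members lie mostly above 0 on the vertical axis, from -1.43 to 9.59, and among them the order on 1 axis says little of the order on the other; genes beyond the axes are not drawn.

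Among the members, place in the choosing order said little about the median ratio in the other libraries, although fewer were called toward its end. The median fitted ratio was 0.67 for the 48 members ranked 1 to 50, 0.61 for the 49 ranked 51 to 100, 0.66 for the 50 ranked 101 to 150 and 0.49 for the 50 ranked 151 to 200. The members called higher numbered 14, 11, 9 and 6 in these spans, where 2.39% of all genes tested were called higher. In salt footprints against RNA libraries 4 and 5 they numbered 15, 8, 11 and 5, against 2.11% of all genes, with median ratios of 0.76, 0.69, 0.69 and 0.51. Across the 197 members the Spearman correlation of the choosing ratio with the CPM ratio of libraries 4 and 5 was 0.13, and across the 10173 eligible genes it was 0.53. Choosing ratios span 1.17 to 4.36 in the members and -10.57 to 4.36 in the eligible genes, and a narrow span can lower a correlation. These correlations run across genes, which are not independent replicates, and each ratio takes all its values from the same 4 or 6 libraries.

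The members with the largest fitted ratios in libraries 4 and 5 are described first. Among those called higher without overlap in CPM, the largest fitted ratio after ENSRNOG00000010711 (log2 ratio 9.59, SE 0.74, edgeR adjusted p = 0.011) was that of ENSRNOG00000018273, ranked 4. It had 769 and 1057 CPM in vehicle libraries 4 and 5 and 230.5 and 226 CPM in RNA libraries 4 and 5, so every footprint value was more than 3 times every RNA value (log2 ratio 2.26, SE 0.31, edgeR adjusted p = 0.000826). In the choosing libraries it had 584, 746 and 778 CPM of footprints against 125, 96.0 and 159 CPM of RNA. Vehicle library 5 held the highest of its 5 vehicle values, and both shallow RNA values lay above all 3 deep ones.

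The member ranked 54 had 189 and 289.8 CPM in vehicle libraries 4 and 5 and 66.3 and 65.3 CPM in RNA libraries 4 and 5 (log2 ratio 2.12, SE 0.31, edgeR adjusted p = 0.00119). It was 1 of 18 members whose RNA was lower in both shallow libraries than in all of RNA libraries 1 to 3 (42.0% of eligible genes), which held 124, 117 and 96.7 CPM. Its footprints had been 252, 404 and 369.9 CPM in vehicle libraries 1 to 3, above vehicle library 4 in each case. Its choosing ratio was 1.60.

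The member ranked 17 had 369 and 328 CPM in vehicle libraries 4 and 5 and 121 and 117 CPM in RNA libraries 4 and 5 (log2 ratio 1.80, SE 0.26, edgeR adjusted p = 0.000993). Both footprint values exceeded the 144 to 216 CPM of vehicle libraries 1 to 3. The member ranked 30 had 1092 and 900.4 CPM in vehicle libraries 4 and 5 and 413 and 418 CPM in RNA libraries 4 and 5 (log2 ratio 1.51, SE 0.20, edgeR adjusted p = 0.000693), again without overlap.

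The remaining members among the 12 largest such ratios were those ranked 77, 49, 89, 11, 58, 130 and 25, with fitted ratios from 1.49 to 1.99. The member ranked 77 had 57.5 and 48.4 CPM in vehicle libraries 4 and 5 and 18.9 and 12.4 CPM in RNA libraries 4 and 5, and its SE of 0.51 was the largest of these. The member ranked 199, almost the last inside the list, had the smallest adjusted p of all members, at 0.000479. It had 1805 and 1681 CPM in vehicle libraries 4 and 5 and 809 and 692 CPM in RNA libraries 4 and 5, with a fitted ratio of 1.46 (SE 0.19), and was singled out after its values were seen.

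The 5 members that took the most counts of the vehicle libraries on average were ranked 1, 148, 21, 25 and 131. All 5 were called higher in libraries 4 and 5, against 2.39% of all genes tested. Vehicle libraries 4 and 5 entered the average that picked these 5, so such calls were favoured and are given as a description. The member ranked 148 had 5974, 10633 and 9935 CPM in vehicle libraries 1 to 3 but 3313 and 3908 CPM in vehicle libraries 4 and 5, a drop with no overlap. Its RNA was 4317, 3325 and 3363 CPM in RNA libraries 1 to 3 and 2707 and 2553 CPM in RNA libraries 4 and 5, so the footprints stayed above RNA at a smaller ratio (log2 ratio 0.71, SE 0.17, edgeR adjusted p = 0.0275). The member ranked 21 had 3913 and 3440.3 CPM in vehicle libraries 4 and 5 and 2337 and 2064 CPM in RNA libraries 4 and 5 (log2 ratio 0.99, SE 0.16, edgeR adjusted p = 0.00341), against 4546, 6162 and 6177 and 985, 1521 and 2141 CPM in the choosing libraries.

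**Figure D3:**
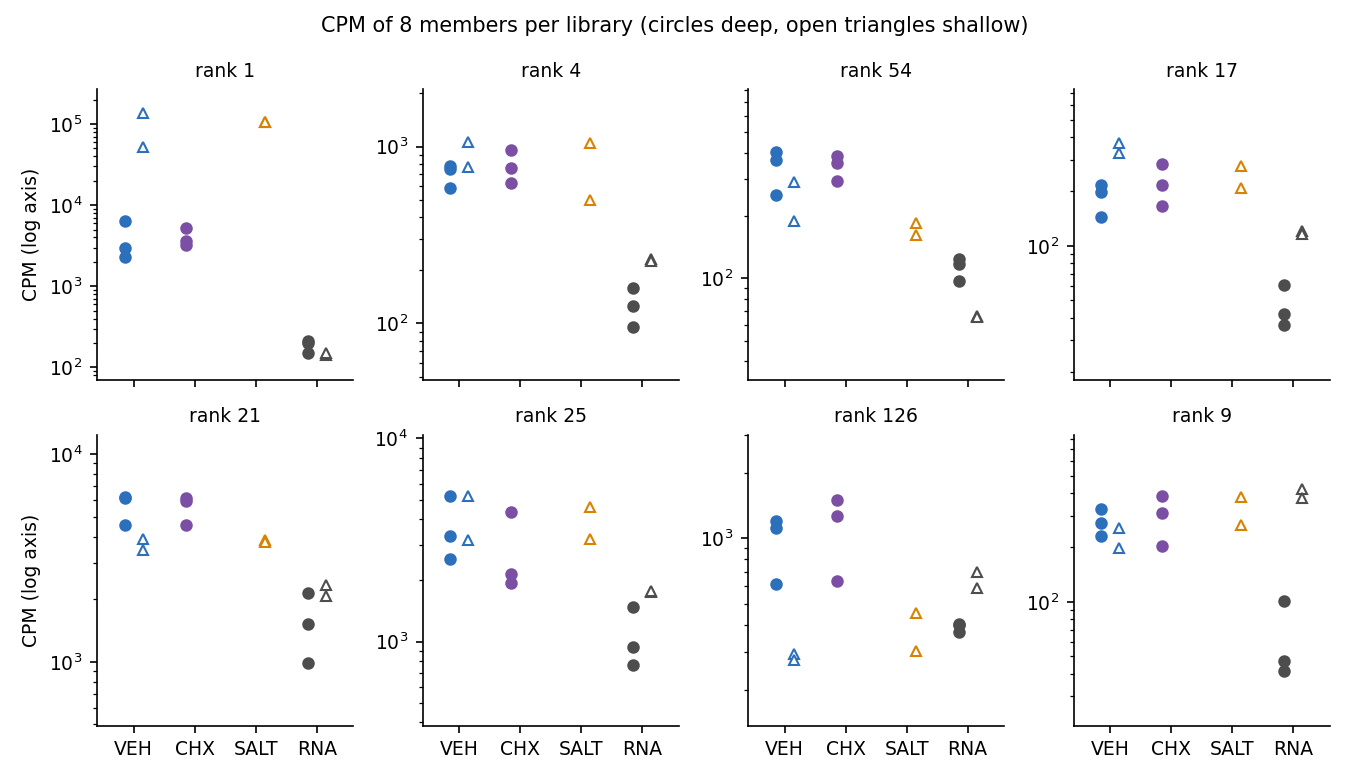
CPM of 8 members in every library on a log axis, by group (VEH vehicle, CHX cycloheximide, SALT salt footprints, RNA homogenate RNA); circles are deep and open triangles shallow libraries. Ranks 1, 4, 54, 17, 21 and 25 keep shallow footprints above shallow RNA, while in ranks 126 and 9 both shallow vehicle values lie below both shallow RNA values.

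In CPM, other members had RNA above footprints in libraries 4 and 5. Both RNA values lay above both footprint values in 24 members (12.2%), against 40.5% of the eligible genes. In 102 (51.8%) both footprint values lay above both RNA values, against 15.5%. Such CPM values carry no TMM scaling, and the median log2 CPM ratio there was -0.31 over the eligible genes. Of the 24, ranks 27, 63, 141 and 157 had fitted ratios slightly above 0, and the others lay below 0. The 1 member called lower was ENSRNOG00000060728, ranked 126. It had 292 and 273 CPM in vehicle libraries 4 and 5 and 699 and 590.1 CPM in RNA libraries 4 and 5 (log2 ratio -0.94, SE 0.24, edgeR adjusted p = 0.0426). In the choosing libraries its footprints were 614, 1120.1 and 1202 CPM and its RNA 399, 369 and 401 CPM, so footprints were lower and RNA higher in the shallow class, each without overlap.

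The lowest fitted ratio was that of ENSRNOG00000021181, ranked 31, at -1.43 (SE 0.44, edgeR adjusted p = 0.0877), which did not pass the threshold. It had 19.5 and 28.8 CPM in vehicle libraries 4 and 5 and 75.0 and 82.1 CPM in RNA libraries 4 and 5. The members ranked 191, 59 and 52 followed, with ratios of -0.85, -0.83 and -0.61, none past the threshold. The one ranked 52 rested on 5 counts in vehicle library 4 and 69 in vehicle library 5, and had 2.64 and 24.6 CPM there.

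Of the 10 highest choosing ratios, 4 were called higher in libraries 4 and 5 (ranks 1, 2, 4 and 6), against 2.39% of all genes tested. The members ranked 3 and 7 did not separate from RNA there: rank 3 had 94.4 and 107 CPM in vehicle libraries 4 and 5 and 83.7 and 104 CPM in RNA libraries 4 and 5 (fitted ratio 0.35, SE 0.39), and rank 7 had 204 and 115 CPM in vehicle libraries 4 and 5 and 189 and 179 CPM in RNA libraries 4 and 5 (0.03, SE 0.34). The member ranked 9 had 199 and 257 CPM in vehicle libraries 4 and 5 and 419.9 and 377 CPM in RNA libraries 4 and 5, with RNA above footprints in each. The members ranked 5, 8 and 10 had fitted ratios of 1.68, 0.36 and 0.71, none past the threshold (rank 5 at edgeR adjusted p = 0.0559). In each of them both footprint values lay above both RNA values, as in 15.5% of eligible genes. In RNA libraries 1 to 3 the members ranked 3, 7 and 9 had had 11.4 to 19.8, 16.3 to 49.2 and 41.2 to 101 CPM.

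Footprints and RNA of the members both differed between the depth classes. On the log2(CPM + 0.1) scale the median member was lower by 0.49 in vehicle libraries 4 and 5 than in vehicle libraries 1 to 3 (difference -0.49), and higher by 0.62 in RNA libraries 4 and 5 than in RNA libraries 1 to 3. Over the eligible genes the same differences were -0.13 and -0.31. Both RNA 4 and 5 values lay above all 3 of RNA 1 to 3 in 128 members (65.0%, against 15.0% of eligible genes), and both vehicle 4 and 5 values lay below all 3 of vehicle 1 to 3 in 113 (57.4%, against 29.6%). The rule favoured genes low in RNA libraries 1 to 3 and high in vehicle libraries 1 to 3, so shifts of these signs follow in part from the choice, and they are given as a description. Depth moves with these differences, and its part was not tested.

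The RNA libraries that chose the members also differed among themselves. RNA library 1 was the lowest of RNA libraries 1 to 3 in 141 members (71.6%) and RNA library 3 the highest in 159 (80.7%), while these shares were 33.1% and 28.2% over the eligible genes and 58.5% and 65.0% over the next 200. Median levels of the members were 63.3, 78.9 and 108 CPM in RNA libraries 1, 2 and 3 and 149.98 and 150.96 CPM in RNA libraries 4 and 5. The median ratio of the highest to the lowest of RNA libraries 1 to 3 was 1.50 in the members and 1.30 in the eligible genes.

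When the same ordering was made in libraries 4 and 5, over 9338 genes with at least 10 CPM in RNA of both classes, 20 members were among its first 200 genes, which is 10.2% of the members and 10.0% of that list. That list holds 200 of the 9338 genes, so the share of members in it was larger than the share of all genes. The median percentile of the 196 members ranked there was 81.7, and 54 of them (27.6%) lay at percentile 90 or above, where by definition about 10% of all ranked genes lie. The lowest percentile was 10.7. Of the 196, 170 lay at percentile 50 or above. Most thus stayed in the upper range, while a minority stayed among the first 200, though a larger share than of all 9338 genes.

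Salt libraries give a further look at the ratio, since they did not choose the members, although RNA libraries 4 and 5 serve for this comparison as well. Of the 197 members, 39 (19.8%) had more salt footprints than RNA and 0 had fewer at an adjusted p under 0.05 in edgeR, against 2.11% and 2.04% of all genes tested, or 4.14% in either direction. At an unadjusted p under 0.05, 94 members were higher and 1 lower by edgeR, against 8.47% and 9.13% of all genes, and DESeq2 called 58 higher and 0 lower, where it called 2.5% of all 16442 genes higher. The median fitted ratio was 0.67, against -0.09 over all genes tested. Here too the members' median SE was smaller, at 0.30 against 0.56 over the eligible genes tested, of which 2.4% were called higher. With scaling to total counts the median was 0.41, against -0.36 over all genes, and 24 members were called higher, against 0.801% of all genes. Without salt library 2 the members called higher numbered 7 and without salt library 1 they numbered 27, where the shares of all genes called higher were 0.256% and 0.922%.

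In 107 members (54.3%) both salt values exceeded both RNA values, against 15.5% of eligible genes. The vehicle and salt values of libraries 4 and 5 and 1 and 2 were all above both RNA values in 85 members (43.1%, against 9.42%). With the 3 cycloheximide libraries added, all 7 footprint libraries outside the choice lay above RNA libraries 4 and 5 in 83 members (42.1%, against 5.68%). The last of these crosses the depth classes. Its cycloheximide libraries were taken to pair by number with vehicle libraries 1 to 3, which chose the members, so they are not fully independent of the choice. Among the 200 genes next in the choosing order the share was 35.0%.

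Salt-treated pellets were compared with vehicle libraries 4 and 5, which are of the same depth class. No member was called: 0 of 197 passed in edgeR and 0 by DESeq2, against 0.0% of all 11729 genes, and 2 members were higher and 1 lower at an unadjusted p under 0.05, against 1.62% and 2.15% of all genes and 3.77% in either direction. The median fitted log2 fold change of the members was 0.04, with quartiles of -0.14 and 0.23, against -0.01 over all genes tested. Both salt values lay above both vehicle values in 30 members (15.2%, against 13.5% of eligible genes) and below in 19 (9.64%, against 14.7%). The median SE of a member's fold change was 0.29, so small changes were not detectable.

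The 3 members with the smallest p in this comparison were ranked 59, 23 and 31. Rank 59 had 54.2 and 65.6 CPM with salt and 24.3 and 28.8 CPM with vehicle, without overlap (log2 fold change 1.17, SE 0.44, edgeR adjusted p = 1.0). Rank 23 went the other way, with 56.3 and 94.9 CPM with salt and 145 and 134 CPM with vehicle (log2 fold change -0.88, SE 0.35, edgeR adjusted p = 1.0). Rank 31 had 46.7 and 49.2 CPM with salt against 19.5 and 28.8 CPM, so its salt values lay between the shallow vehicle values and the deep ones of 67.0 to 109 CPM. None of the 3 differences passed the threshold.

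Cycloheximide freezes elongating ribosomes on their mRNA, and the next comparison sets footprints with and without it during homogenisation. Vehicle libraries 1 to 3 chose the members, so a fall with cycloheximide is favoured by the choice. No member was called in edgeR or DESeq2 (0 of 197, against 0.0% of all 15437 genes tested), and 0 members had an unadjusted p under 0.05, against 1.32% of all genes, of which 0.7% were higher. With the library number as a replicate block 0 members were called by adjusted p in edgeR, and at an unadjusted p under 0.05 there were 2 higher and 8 lower, or 1.02% and 4.06%, against 1.41% and 3.34% of all 13871 genes in that fit. The median fitted log2 fold change was -0.01, the same as over all genes tested, and member values ran from -0.44 to 0.22. The cycloheximide values lay above all vehicle 1 to 3 values in 1 member (0.508%, against 1.78% of eligible genes) and below in 2 (1.02%, against 0.895%). In the cycloheximide libraries the median CPM ratio to RNA libraries 1 to 3 was 1.41 and to RNA libraries 4 and 5 was 0.95, both on the log2 scale. The first of these uses the RNA libraries of the choice, and the second crosses the depth classes. In both, the cycloheximide libraries were taken to pair by number with the vehicle libraries of the choice.

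The 3 members with the smallest p were ranked 25, 50 and 169, with log2 fold changes of -0.43, 0.21 and -0.23 and unadjusted p of 0.266, 0.309 and 0.36 in edgeR. Rank 25 had 5208, 2556 and 3310.3 CPM in vehicle libraries 1 to 3 and 4332, 2156 and 1953 CPM in cycloheximide libraries 1 to 3. It was lower with cycloheximide for each of the 3 numbers. With the replicate block its log2 fold change was -0.46 (SE 0.10, unadjusted p = 0.0014, adjusted p = 0.996 in edgeR), which did not pass the threshold. Rank 50 had 66.9, 67.3 and 73.7 CPM with vehicle and 76.7, 94.7 and 75.2 CPM with cycloheximide, higher for each number and without overlap. Rank 169 had 48.3, 49.2 and 48.4 CPM with vehicle and 41.5, 42.6 and 43.9 CPM with cycloheximide, lower for each number and without overlap. With the block the unadjusted p of ranks 50 and 169 was 0.099 and 0.0588 in edgeR.

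**Figure D4:**
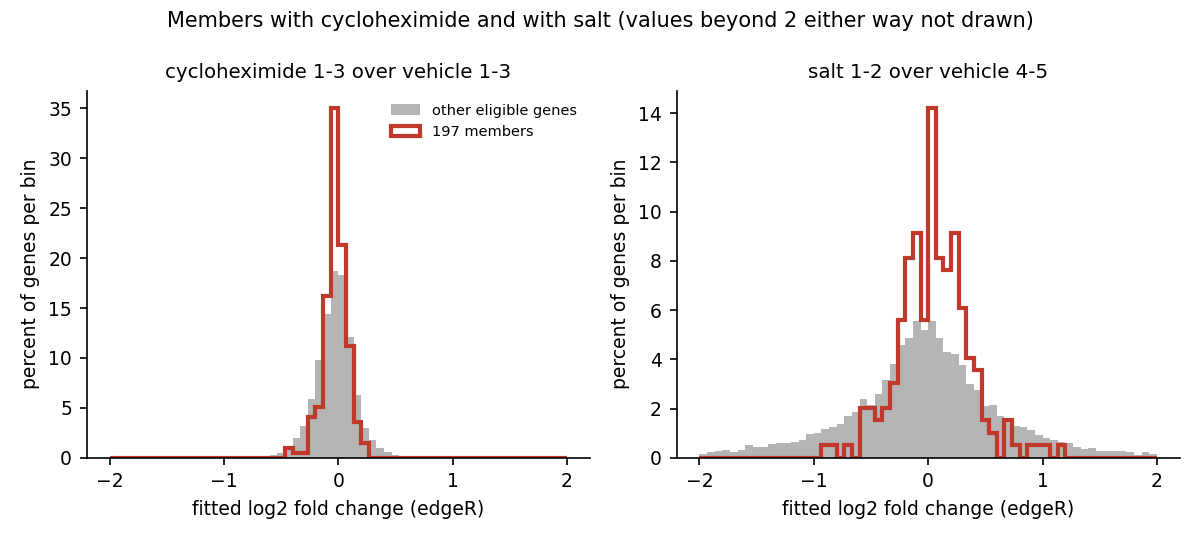
Percent of genes per bin of the fitted log2 fold change, with cycloheximide against vehicle 1 to 3 on the left and salt against vehicle 4 and 5 on the right; grey bars are the other eligible genes tested and the red line the 197 members. Both member distributions sit around 0, with medians of -0.01 and 0.04.

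Within the deep class, the members were mostly low in both libraries numbered 1. Vehicle library 1 was the lowest of vehicle libraries 1 to 3 in 153 members and cycloheximide library 1 the lowest of its 3 in 156. Both held in 146 members (74.1%), against 35.7% of eligible genes and 66.5% of the 200 genes next in the choosing order. Vehicle library 2 was the lowest in 34 members and cycloheximide library 2 in 10, while vehicle library 3 was the lowest in 10 and cycloheximide library 3 in 31. How many members were lowest in both libraries numbered 2, or in both numbered 3, was not counted. In these 146 the median difference of library 1 from the mean of libraries 2 and 3 was -0.46 with vehicle and -0.42 with cycloheximide on the log2 scale. Both differences are negative by the way the 146 were drawn. The cycloheximide libraries had no part in choosing the members, but cycloheximide library 1 helped to define these 146.

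In 19 members (9.64%, against 37.6% of eligible genes and 15.5% of the next 200) the order was turned, with library 1 the highest in both groups, by a median of 0.47 and 0.29. Rank 25 was one of them, at 5208 CPM in vehicle library 1 against 2556 and 3310.3 in vehicle libraries 2 and 3. The member ranked 41, picked after its values were seen, was another, at 414 against 163 and 218 CPM with vehicle and 298 against 161 and 144 CPM with cycloheximide. Among the same 19 members vehicle 4 was above vehicle 5 in 16 (84.2%) and salt 1 above salt 2 in 17 (89.5%). In the 32 members in neither subset these counts were 24 (75.0%) and 15 (46.9%). In the 146 members these counts were 56 and 50, which is 38.4% and 34.2%, and over the eligible genes the shares were 51.0% and 52.4%. Both subsets were drawn after the values were seen and are described without a test. The signs of their differences between library 1 and libraries 2 and 3 follow from how they were drawn. The median fitted ratio in libraries 4 and 5 was 0.24 in the 19 and 0.68 in the 146.

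**Figure D5:**
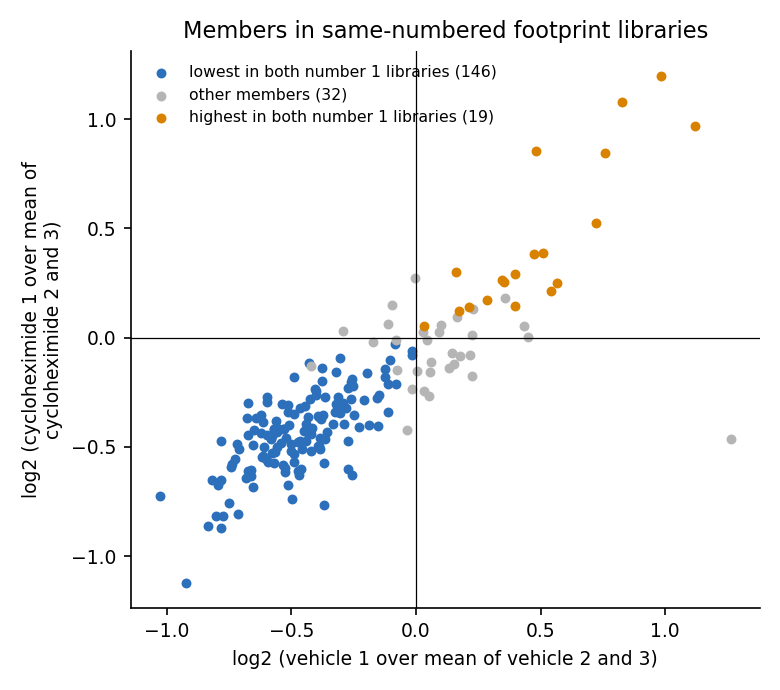
Each point is 1 of the 197 members: the log2 ratio of library 1 to the mean of libraries 2 and 3 with vehicle (horizontal) and with cycloheximide (vertical). Most members fall in the lower left, 146 of them lowest in both number 1 libraries, and 19 are highest in both; the grey point far to the right is the member ranked 1, at 6316 CPM in vehicle library 1.

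The 200 genes next in the choosing order show how far the members differ from their neighbours. Their choosing ratios ran from 0.92 to 1.17. In libraries 4 and 5, 32 of them (16.0%) were called higher and 0 lower in edgeR, with 1 lower at an unadjusted p under 0.05, and their median fitted ratio was 0.53 against the members' 0.62. Both footprint values exceeded both RNA values in 93 of them (46.5%), against 51.8% of the members. Their median RNA difference between the classes was 0.27 and their footprint difference -0.52, where the members had 0.62 and -0.49. The difference between the lists was not tested.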

How the data were processed

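Whole-brain footprint and RNA libraries were deposited by the authors as 1 table of raw counts per gene ID, with 15 columns and 22050 rows. Per the submitters' processing notes, cutadapt 2.8, Bowtie2 2.3.5, STAR 2.7.3a, CASAVA and deepTools were used with build Rnor_6.0; their roles, the counting tool and the annotation are not given in the sources used here. The 6 genes with empty cells in 9 columns were left out of the fits, leaving 22044.

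CPM was computed from column totals. Counts were tested with edgeR 4.0.16 (TMM, filterByExpr, robust quasi-likelihood test, Benjamini-Hochberg adjustment over all genes tested, threshold 0.05) in R 4.3.3, in 1 fit of the 6 shallow libraries and 1 of the 9 deep ones, without a replicate block. DESeq2 1.42.0 was an alternative. The script was tested on simulated data. Counts per gene are not scaled to length, so levels are not compared between genes.

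The members and lists were chosen with earlier results of these data known. Members given with values were the 10 highest choosing ratios, the 12 largest ratios in libraries 4 and 5 among those called higher without overlap, the 5 lowest, the 3 on each side of the end of the list, the 3 with the smallest p for salt and for cycloheximide, and the 5 most counted. Rank 41 falls outside this rule and was chosen after its values were seen. Some members are given as a range. With 0 IDs paired with a symbol, 4 IDs are printed and the others are given by rank; lists of named genes, marker checks and sequences were not used here.

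Vehicle and cycloheximide libraries share the numbers 1 to 3. Their deviations from the group means correlated at 0.78, 0.41 and 0.38 for numbers 1, 2 and 3, so the numbers were taken to pair them. For numbers 2 and 3 the crossed pairs correlated more, at 0.46 for vehicle 3 with cycloheximide 2 and 0.55 for vehicle 2 with cycloheximide 3, so number 1 alone is marked out by its number. Other settings tried were RLE and total-count scaling, no filter, leaving out each library, only the groups compared, without the most counted gene, the first 100 genes, a minimum of 20 CPM, halved RNA counts (most are even) and a replicate block.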

Additional observations from a re-analysis of the deposited data

Results flagged for a closer look

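The members' share of counts in vehicle library 5, at 20.78%, lay far from the other 4 vehicle libraries, which ran from 9.272% to 12.52%. The gap was 0.7177 of the range, above the critical value of 0.71 for 5 libraries. Of 60 groups of values examined this was the 1 that stood out, where chance gives about 1 in 20, or 3. Without ENSRNOG00000010711 the share was 7.28% in vehicle library 5 and 7.35% in vehicle library 4, or 8.42% and 7.75% of the counts that remain. That gene alone took 13.5% of the counts of vehicle library 5 and 5.17% of those of vehicle library 4.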

How the results depend on the processing

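Of 101 values recomputed under other settings, 84 stayed within 1.5 times the reported count or within 1 SD of the members' median between replicate libraries, and 17 moved. That SD was 0.0078 for vehicle against RNA, 0.0779 for salt against vehicle and 0.1925 for cycloheximide against vehicle, so an equal shift could count as moved or not. Of the 84, 13 salt and 16 cycloheximide counts against vehicle only stayed at 0 calls. The 40 members called higher in libraries 4 and 5 became 22 with total-count scaling and 25 of the first 100 genes, and 21 to 31 when 1 library was left out. The median of 0.62 became 0.35 with total counts, 0.59 without the most counted gene and 0.57 with the replicate block, and ran from 0.52 to 0.63 with 1 library left out. The block gave 43 calls there, where 2.98% of all genes were called higher and 7.2% in either direction. Library numbers did not pair the samples in that comparison (correlation -0.06). The 39 salt calls against RNA became 24 with total counts and 23 of the first 100 genes, and 7 to 37 with 1 library left out. Total-count scaling also lowered the share of all genes called higher, from 2.39% to 0.998% with vehicle and from 2.11% to 0.801% with salt. With 1 library left out, that share was likewise lower than in the main fit in each case, for vehicle and for salt. The lower counts under these settings were thus not confined to the members. The first 100 genes hold 97 members, so fewer could be called. For the other changes the cause was not tested.

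Salt against vehicle stayed at 0 calls except with the replicate block over all 5 vehicle libraries, which pairs shallow salt with deep vehicle libraries and gave 26 (2 higher and 24 lower), where 4.17% of all genes were called (232 higher and 250 lower). The median of 0.04 changed sign, to -0.24 with all 5 vehicle libraries and -0.39 with that block, against -0.06 and -0.11 over all genes tested. Both settings bring in vehicle libraries 1 to 3, which chose the members, so lower salt values are favoured by the choice there. Cycloheximide calls were 0 under all 16 alternatives, the replicate block among them, and the median of -0.01 was 0.17 with all 5 vehicle libraries. That last setting mixes vehicle libraries 1 to 3, which chose the members, with vehicle libraries 4 and 5, which did not. With 1 library left out of a pair, the lone sample is assumed to vary like the other groups. The shallow libraries limit precision: the lowest member count in a shallow footprint library was 4 and the median 273, against a median of 8197.5 in deep ones.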

Other observations

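A pair of members with unequal values in RNA libraries 4 and 5 was picked after the values were seen. The member ranked 89 had 346 and 722 CPM in RNA libraries 4 and 5 and 1377 and 1532 CPM in vehicle libraries 4 and 5. The member ranked 58 had 167 and 303 and 609.96 and 537 CPM in the same libraries. In cycloheximide libraries 1 to 3 rank 89 had 1697, 736 and 1139 CPM and rank 58 had 541, 294 and 601 CPM, and in both members cycloheximide library 2 was the lowest of the 3.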
